A study of Mus musculus with 6 samples.

Results

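The 10 genes described here are expressed in mouse skin and each encodes the muscle-type form of a protein that supplies, buffers or moves cellular energy. They are Ckm, Ckmt2, Ak1, Ampd1, Mb, Eno3, Cox6a2, Cox7a1, Cox8b and Slc25a4, and they were taken from the deposited expression table by gene symbol. All 10 had a row among the 57010 genes of the table, and all 10 passed the filter for testing, an average FPKM (fragments per kilobase of transcript, scaled to library depth) of 1 or more across the 6 libraries. Skin RNA was sequenced from 6 WT mice at the end of a diabetic ulcer experiment, 1 library per mouse. In the CST group 3 mice, numbered 1 to 3, had been given a gel with CST on the skin. CST is cortistatin in the series title, a neuropeptide related to somatostatin. The other 3 had been given Yoda1, a synthetic agonist of the ion channel Piezo1, in the same way. Strain, age, sex, dose and the time of sampling were not stated by the labels. Skin without either agent was not analysed here, so each comparison sets CST skin against Yoda1 skin.

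Muscle fibres hold their ATP steady through creatine phosphate, which creatine kinases load at the mitochondria and unload at the myofibrils, and through adenylate kinase, which makes ATP and AMP out of ADP. Cytochrome c oxidase, the last enzyme of the respiratory chain, carries tissue-specific forms of several small subunits, and striated muscle uses the forms encoded by Cox6a2, Cox7a1 and Cox8b where most tissues use those of Cox6a1, Cox7a2 and Cox8a. Mouse skin lies on a thin sheet of striated muscle, the panniculus carnosus, so a skin sample can hold muscle fibres. Cox7a1, Cox8b and Mb are also used by brown adipocytes, Ak1 by red cells, and Slc25a4 by many cell types.

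The depth behind the FPKM values ran between 23791352 and 29620526 reads per library, so that 1 read on a transcript of 1 kb was worth 0.0338 to 0.0420 FPKM. The labels tag the samples both as skin and as keratinocytes. Krt14, a keratin of basal keratinocytes, measured 8183, 8394 and 8480 FPKM in CST mice, against 5973, 5835 and 14601 FPKM in Yoda1 mice, and fat, muscle, red cell and macrophage transcripts were present in all 6 libraries, so the libraries were read as whole skin. Transcripts of the mitochondrial genome made up 6.72%, 3.25% and 3.35% of all FPKM in CST mice, against 3.81%, 3.38% and 7.61% in Yoda1 mice.

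Across all genes, limma with Benjamini-Hochberg adjustment called 0 of 14588 genes (0%) at an adjusted p of 0.05, with 584 genes at an unadjusted p under 0.05 and a smallest adjusted p of 0.521, and limma-voom on recovered reads called 0 as well (585 at an unadjusted p under 0.05). None of the 10 members was called, and the values below are given with that limit. In each of the 10 the mean was greater in CST skin, with log2 changes (the CST mean less the Yoda1 mean of log2(FPKM + 1)) between 0.89 and 4.61 and a median of 2.96, against a median of -0.01 over all genes tested. A log2 change above 0 was seen in 47.2% of all genes. In 7 of the 10 members the lowest CST mouse was above the highest Yoda1 mouse, a separation found in this direction in 4.52% and in either direction in 6.59% of all genes tested, and all 10 had an unadjusted p under 0.05, as did 3.21% of all genes in that direction. The members were chosen with results of these data known and move together across the 6 libraries, so these counts describe 1 shared pattern rather than 10 separate ones. In bulk RNA, fewer muscle fibres in a sample and less of these transcripts per fibre cannot be told apart.

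**Figure D1:**
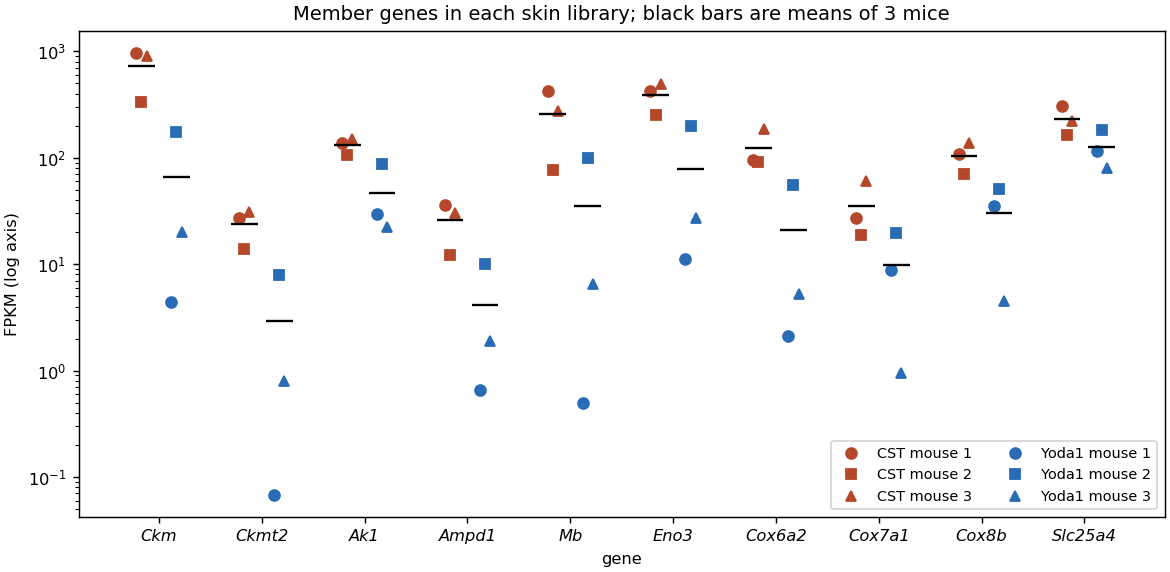
FPKM of the 10 genes in each library on a log axis, with CST mice left of Yoda1 mice for each gene, a symbol per mouse and black bars for the mean of 3 mice. Yoda1 mouse 2 is the highest Yoda1 mouse in every gene and overlaps the CST mice in Mb, Cox7a1 and Slc25a4, and Yoda1 mice 1 and 3 lie below all CST mice.

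Promoter sequence is shown for 3 members of different roles, a mitochondrial creatine kinase, an oxidase subunit and the oxygen store, because their windows hold the E-box core CAGCTG, the letters that the muscle regulators MyoD and myogenin are known to favour. Each line gives the 250 bases before a RefSeq start of the gene on GRCm38.p6, 5' to 3' on the strand of the gene, with every E-box (CANNTG, both strands) in capitals. The windows are chr13:91876886-91877135 for Ckmt2, chr7:140900447-140900696 for Cox8b and chr15:77022788-77023037 for Mb, all 3 on the minus strand. Mb has several starts, and the window shown lies inside its gene span. Its window at the 5' end of the span (chr15:77050669-77050918) held no CAGCTG.
Ckmt2: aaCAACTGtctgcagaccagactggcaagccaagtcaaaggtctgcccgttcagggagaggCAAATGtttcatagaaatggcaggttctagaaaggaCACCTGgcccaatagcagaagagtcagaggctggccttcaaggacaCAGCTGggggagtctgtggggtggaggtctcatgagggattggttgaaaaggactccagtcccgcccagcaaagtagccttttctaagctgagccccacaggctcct
Cox8b: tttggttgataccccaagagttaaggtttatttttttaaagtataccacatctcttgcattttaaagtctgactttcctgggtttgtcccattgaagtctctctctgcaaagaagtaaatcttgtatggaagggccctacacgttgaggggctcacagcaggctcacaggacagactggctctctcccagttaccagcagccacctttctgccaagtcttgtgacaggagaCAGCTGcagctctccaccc
Mb: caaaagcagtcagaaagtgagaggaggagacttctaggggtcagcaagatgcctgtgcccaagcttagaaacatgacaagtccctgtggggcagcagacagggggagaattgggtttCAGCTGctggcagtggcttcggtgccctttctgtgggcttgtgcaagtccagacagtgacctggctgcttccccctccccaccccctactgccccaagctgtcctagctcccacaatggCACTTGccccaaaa

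RefSeq windows were found for 8 of the 10 members, 13 windows in all because Ak1 and Mb have several starts. CAGCTG stood in 7 of these 13 windows and in 5 of the 8 genes (Ckm, Ckmt2, Ak1, Mb and Cox8b), against 13.001% of the 32851 windows of all genes; 2 of the 7 are overlapping windows of Mb that share a match. The looser E-box CANNTG, which includes CAGCTG, stood in all 13 and in 66.2% of all windows. The MEF2 motif was found in 0 of the 13 and in 2.92% of all windows, and TATAAA on the gene strand in 0 of the 13 and in 7.59% of all. These are matches of letters in a short window, with no measurement of binding.

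Of the 10 genes, Ckm had the largest log2 change and Ckmt2 the smallest p. Ckm, the cytosolic creatine kinase of muscle (ENSMUSG00000030399, chromosome 7, 19404776 to 19422841 on GRCm38, plus strand), measured 959, 335 and 909.6 FPKM in CST mice 1 to 3 and 4.38, 174 and 20.2 FPKM in Yoda1 mice 1 to 3. The lowest CST mouse stood at 1.92 times the highest Yoda1 mouse, and the 3 Yoda1 mice were themselves spread over a wide range. The mean was 734 ± 347 FPKM in CST and 66.2 ± 93.8 FPKM in Yoda1 skin (SD, n = 3 each), a fold of 11.1, and on the log2 scale the change was 4.61 (SE 1.12, limma adjusted p = 0.561). Ckmt2, the creatine kinase bound to mitochondria in striated muscle (chromosome 13, 91853387 to 91876885, minus strand), measured 27.4, 14.0 and 30.7 FPKM in CST and 0.0682, 7.88 and 0.792 FPKM in Yoda1 mice. The groups did not overlap, and the value of Yoda1 mouse 1 rested on 3 reads, against 575 to 1323 reads in the CST libraries. Its log2 change was 3.21 (SE 0.73, limma adjusted p = 0.521). Per length, Ckmt2 stood at 2.86%, 4.17% and 3.37% of Ckm in CST and at 1.56%, 4.52% and 3.91% in Yoda1 mice, with overlap between the groups.

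The genes of adenine nucleotide turnover differed in how much of them was present in Yoda1 mice 1 and 3, the libraries with little contractile transcript. Ampd1, the muscle AMP deaminase that opens the purine nucleotide cycle (chromosome 3, 103074014 to 103099720, plus strand), measured 36.0, 12.1 and 30.0 FPKM in CST and 0.659, 9.95 and 1.90 FPKM in Yoda1 mice. CST mouse 2 lay only a little above Yoda1 mouse 2, so the groups were apart by a narrow margin, and the log2 change came to 2.72 (SE 0.69, limma adjusted p = 0.579). Ak1, adenylate kinase 1 (chromosome 2, 32621758 to 32635058, plus strand), measured 137, 107 and 149 FPKM in CST and 29.7, 86.7 and 22.4 FPKM in Yoda1 mice. Its groups did not overlap either, but the span over the 6 libraries was 6.65-fold where that of Ampd1 was 54.7-fold, and the log2 change was 1.72 (SE 0.46, limma adjusted p = 0.584). Red cells also hold Ak1: the summed FPKM of 7 erythroid genes came to 1323, 2735 and 966 for CST mice and to 331, 736 and 747 for Yoda1 mice, with no overlap and with Hbb-bs the highest by mean, and its part in the Ak1 difference was not tested.

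Mb encodes myoglobin, the oxygen-binding protein of muscle (chromosome 15, 77015487 to 77050670, minus strand). It measured 422, 77.0 and 273 FPKM in CST and 0.493, 99.1 and 6.58 FPKM in Yoda1 mice, the widest span of the 10 at 856-fold between CST mouse 1 and Yoda1 mouse 1. The groups overlapped, since Yoda1 mouse 2 lay above CST mouse 2, and the log2 change of 4.32 had an SE of 1.38 (limma adjusted p = 0.729). Eno3, the enolase of muscle glycolysis (chromosome 11, 70657202 to 70662513, plus strand), measured 427, 250.3 and 492 FPKM in CST and 11.2, 198 and 26.9 FPKM in Yoda1 mice. Its groups did not overlap, and CST mouse 2 stood at 1.27 times Yoda1 mouse 2. The mean was 390 ± 125 FPKM in CST and 78.6 ± 103 FPKM in Yoda1 skin (SD, n = 3 each), which gave a log2 change of 3.21 with SE 0.90 (limma adjusted p = 0.607).

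The 3 oxidase subunits lie on chromosome 7, as does Ckm, but far apart. Cox6a2, the heart and muscle form of subunit 6A (128205435 to 128206387, minus strand), measured 95.5, 90.9 and 186 FPKM in CST and 2.13, 55.8 and 5.19 FPKM in Yoda1 mice. The groups did not overlap, and the log2 change was 3.52 (SE 0.95, limma adjusted p = 0.584). Cox8b, the muscle form of subunit 8 (140898945 to 140900446, minus strand), measured 109, 69.9 and 136 FPKM in CST and 35.0, 50.8 and 4.55 FPKM in Yoda1 mice. Here too every CST mouse lay above every Yoda1 mouse, but Yoda1 mouse 1 stood well above Yoda1 mouse 3, the reverse of their order in Cox6a2. The log2 change was 2.23 (SE 0.76, limma adjusted p = 0.813). Cox7a1, the muscle form of subunit 7A (30184144 to 30186078, plus strand), measured 26.9, 18.7 and 60.7 FPKM in CST and 8.77, 19.6 and 0.957 FPKM in Yoda1 mice, the last of these from 10 reads. Yoda1 mouse 2 lay just above CST mouse 2, so the groups overlapped, and the log2 change came to 2.14 (SE 0.82, limma adjusted p = 0.998). Without Yoda1 mouse 3 the log2 change was 1.24 for Cox8b and 1.19 for Cox7a1.

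Slc25a4, the ADP/ATP carrier ANT1 that exchanges the 2 nucleotides across the inner mitochondrial membrane (chromosome 8, 46206797 to 46211284, minus strand), differed least. It measured 304, 165 and 219 FPKM in CST and 116, 182 and 80.9 FPKM in Yoda1 mice. Yoda1 mouse 2 lay above CST mouse 2, so the groups overlapped, and the span over the 6 libraries was 3.76-fold. The mean was 229 ± 70.5 FPKM in CST and 126 ± 51.2 FPKM in Yoda1 skin (SD, n = 3 each), and the log2 change came to 0.89 (SE 0.35, limma adjusted p = 1.00).

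The order of the libraries was shared. CST mice 1 and 3 were the highest pair in all 10 members, with CST mouse 3 the highest in 6 and CST mouse 1 in 4. Yoda1 mouse 2 came next after the 3 CST mice in 7 members and above CST mouse 2 in the other 3, Mb, Cox7a1 and Slc25a4. Yoda1 mouse 1 was the lowest library in 6 members and Yoda1 mouse 3 in the other 4, Ak1, Cox7a1, Cox8b and Slc25a4. Summed over the 10 members, the FPKM were 2544, 1139 and 2488 in CST mice 1 to 3, or 0.325%, 0.146% and 0.308% of the FPKM sum, and 209, 884 and 170.4 in Yoda1 mice 1 to 3, or 0.0271%, 0.109% and 0.0226%.

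One library decided how the members stood against the threshold. Without Yoda1 mouse 2, limma called 7 of the 10 members at an adjusted p of 0.05 (Ckm, Ckmt2, Ak1, Ampd1, Mb, Eno3 and Cox6a2), all with greater values in CST, against 0.926% of all genes called in that direction, and Ckm then had a log2 change of 5.96 (adjusted p = 0.00759). Leaving out any of the other 5 libraries called 0 members. Yoda1 mouse 2 was the highest Yoda1 library in all 10 members, so leaving it out had to widen each difference. The 7 calls are therefore no added evidence of a difference. Without CST mouse 2, 8 other genes were called (0.055% of all genes). With library weights estimated by limma 8 members were called, all but Cox7a1 and Slc25a4, against 4.49% of all genes in that direction. Those weights ran between 0.193 for Yoda1 mouse 3 and 12.8 for Yoda1 mouse 1, so that fit rested largely on a single mouse.

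For 8 members a related isoform that is not tied to muscle was set beside them, and for Ampd1 a pair of them. None of the 9 counterparts was called or had an unadjusted p under 0.05, their log2 changes ran between -0.42 and 0.39 with a median of -0.12, and in 0 of the 9 were the groups apart. Ckb, the brain-type creatine kinase, had the widest spread of them, with 8.45, 30.4 and 38.6 FPKM in CST and 36.7, 56.3 and 12.0 FPKM in Yoda1 mice, and its log2 change was -0.42 (SE 0.67, limma adjusted p = 1.00). Cox7a2 was nearly level, with 217.5 ± 16.1 FPKM in CST and 217 ± 19.3 FPKM in Yoda1 skin (SD, n = 3 each). Ampd3, the AMP deaminase of red cells, had the highest log2 change of the 9 at 0.39 (SE 0.25).

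**Figure D2:**
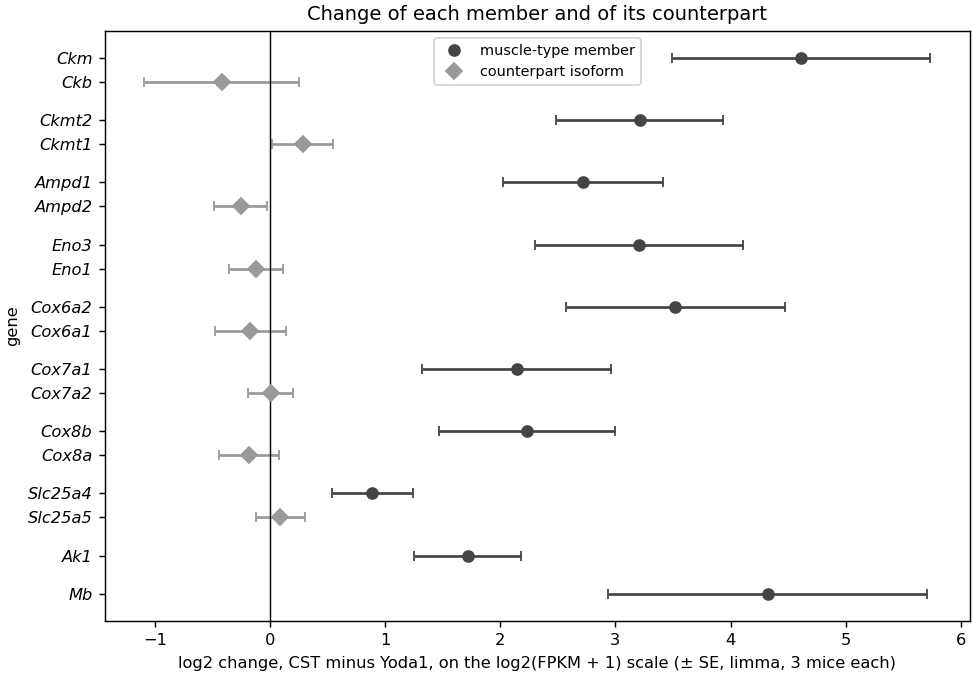
Log2 change, CST minus Yoda1, of each member (dark circles) and, for 8 of them, of the counterpart isoform (grey diamonds), with standard errors from limma over 3 mice each. The members lie between 0.89 and 4.61 and the counterparts shown between -0.42 and 0.28, and no gene passed the adjusted threshold.

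The share of a pair held by the muscle form does not depend on scaling between libraries. Ckm held 99.1%, 91.7% and 95.9% of the FPKM of Ckm and Ckb together in CST mice 1 to 3, against 10.7%, 75.6% and 62.8% in Yoda1 mice 1 to 3. The muscle form was thus the main creatine kinase transcript of the cytosol in every library but that of Yoda1 mouse 1. The difference of the mean shares was 45.9 percentage points, and 26.4 without that mouse. In mitochondrial creatine kinase the order of the isoforms was the other way: Ckmt2 held 10.3% ± 3.63 of its pair in CST and 1.73% ± 2.66 in Yoda1 skin (SD, n = 3 each), and Ckmt1, the form found in epithelia, held the rest. Ampd1 held 57.2% ± 19.4 of Ampd1 and Ampd2 in CST and 14.7% ± 16.1 in Yoda1 skin. Eno3 held 35.5% ± 9.86 of Eno3 and Eno1 in CST and 8.18% ± 10.01 in Yoda1 skin.

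In the oxidase the muscle forms stayed the minor ones. Cox6a2 held 24.2%, 14.6% and 24.1% of its pair in CST and 0.390%, 8.90% and 1.20% in Yoda1 mice. Cox8b held 26.1%, 12.96% and 21.05% in CST and 6.55%, 9.11% and 1.05% in Yoda1 mice, and Cox7a1 10.3%, 8.46% and 21.9% in CST and 4.22%, 8.38% and 0.402% in Yoda1 mice, where CST mouse 2 and Yoda1 mouse 2 were all but equal. The difference of the mean Cox7a1 shares was 9.22 percentage points, and 5.05 without CST mouse 3. Slc25a4 held 49.3%, 30.7% and 38.2% of Slc25a4 and Slc25a5 in CST and 26.2%, 39.4% and 17.8% in Yoda1 mice, which overlapped. In 7 of the 8 pairs the shares of the 2 groups did not overlap. For these the exact two-sided permutation test gave p = 0.1, the smallest that 3 mice against 3 can give (0.114 adjusted over 8 pairs). For Slc25a4 the exact two-sided permutation test gave p = 0.3. The counterparts in these pairs had log2 changes between -0.42 and 0.28, so the shares largely follow the members. Those were chosen with results of these data known and move together. The 7 separations are therefore no added evidence of a difference. How often other gene pairs separate in this way was not tested. The deposited FPKM divide by the mean length of the transcripts of a gene, so a share depends on the annotation: with the length of the longest coding transcript, a setting chosen after seeing the data, Ckmt2 held 17.1% in CST and 3.02% in Yoda1 skin.

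**Figure D3:**
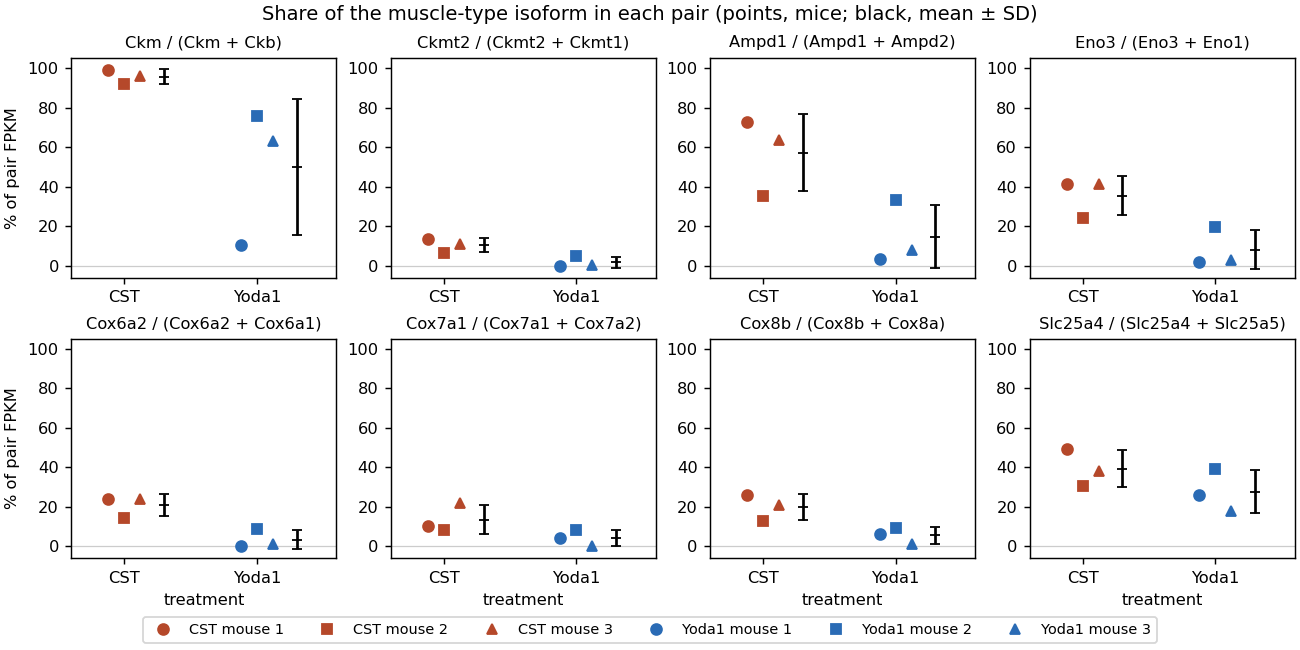
Share of the muscle-type isoform in the summed FPKM of each pair, in percent, with a symbol per mouse, CST left of Yoda1, and the mean ± SD of 3 mice in black. Ckm takes 91.7% or more of its pair in each CST mouse, and the oxidase subunits and Ckmt2 take 26.1% or less in all 6 libraries.

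Other genes of the same pathways were counted for comparison. Of 14 further genes of creatine supply, adenylate kinase, the purine nucleotide cycle, enolase, mitochondrial carriers and globins, 11 were tested, 0 were called and 1 had an unadjusted p under 0.05. That gene was Adssl1, the adenylosuccinate synthase of muscle, which follows Ampd1 in the purine nucleotide cycle. It measured 58.3, 42.9 and 50.2 FPKM in CST and 20.1, 25.4 and 6.67 FPKM in Yoda1 mice, without overlap (log2 change 1.65, SE 0.44, limma adjusted p = 0.584). The next smallest p-values belonged to Adsl, Ak4 and Gamt, the last a creatine-synthesis enzyme, with log2 changes of 0.23, 0.33 and 0.51 and overlapping groups. The creatine transporter gene Slc6a8 measured 88.1 ± 5.08 FPKM in CST and 82.1 ± 14.6 FPKM in Yoda1 skin (SD, n = 3 each). Of 11 oxidase subunit genes that muscle shares with other tissues, or that other tissues use, 0 were called, 8 had a log2 change above 0 and 3 below, and the median was 0.12. Cox5a had the smallest p of them with 141 ± 26.8 FPKM in CST and 116 ± 40.4 FPKM in Yoda1 skin (log2 change 0.32, SE 0.30), followed by Cox4i2 (-0.29), Cox6b2 (0.26) and Cox7c (0.13).

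Contractile transcripts moved with the members. Of 15 such genes, 14 were tested and 0 called, all 14 had a log2 change above 0 (median 3.69) and in 13 the groups did not overlap. Over all genes tested, 47.2% had a log2 change above 0 and 4.52% were apart with CST higher. Myh7, the slow myosin heavy chain, lay between 0 and 0.284 FPKM in every library. Their summed FPKM were 13779, 7975 and 13957 in CST and 126, 5919 and 636 in Yoda1 mice. Of 6 cardiac genes, Myh6 and Nppa were at 0 or 1 read in each library, Ryr2 had 0 to 12 reads and Myl7 7 to 19 reads. Tnni3 lay between 1.91 and 6.64 FPKM in CST mice and between 3.88 and 5.28 FPKM in Yoda1 mice, and Tnnt2 between 9.82 and 113 FPKM in CST mice and between 11.4 and 169.6 FPKM in Yoda1 mice. The mean of the 15 contractile genes in the same library was then taken off, on the log2(FPKM + 1) scale. Myh7, near 0 throughout, lowers that mean, and more so in CST than in Yoda1 libraries. Each difference below, CST minus Yoda1, is thus somewhat higher than with the 14 tested genes alone. Ckm stood at 2.29, 1.605 and 2.17 in CST and at 0.39, 1.11 and 0.79 in Yoda1 mice, higher in CST without overlap. As a percentage of the contractile gene Acta1 alone, the groups overlapped. Ckm then stood at 29.3%, 14.2% and 25.7% in CST and at 13.9%, 11.3% and 14.5% in Yoda1 mice. With the contractile mean as a covariate, limma gave Ckm a log2 change of 0.62, against 4.61 without it. Each CST library had a higher contractile mean than each Yoda1 library. That fit therefore cannot tell treatment and muscle content fully apart. Against the contractile mean Cox6a2 was nearly level, with -0.47 ± 0.49 in CST and -0.63 ± 0.32 in Yoda1 skin (SD, n = 3 each). Slc25a4 stood at 0.64, 0.58 and 0.12 in CST and at 4.84, 1.17 and 2.73 in Yoda1 mice, and Ak1 at -0.51, -0.03 and -0.44 in CST and at 2.91, 0.11 and 0.92 in Yoda1 mice, both without overlap and in the other direction. Their group differences, CST minus Yoda1, were -2.47 for Slc25a4 and -1.64 for Ak1, and -1.51 and -0.84 without Yoda1 mouse 1. The other members overlapped, and for Ckmt2 and Eno3 the sign of the difference turned with the pseudocount.

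**Figure D4:**
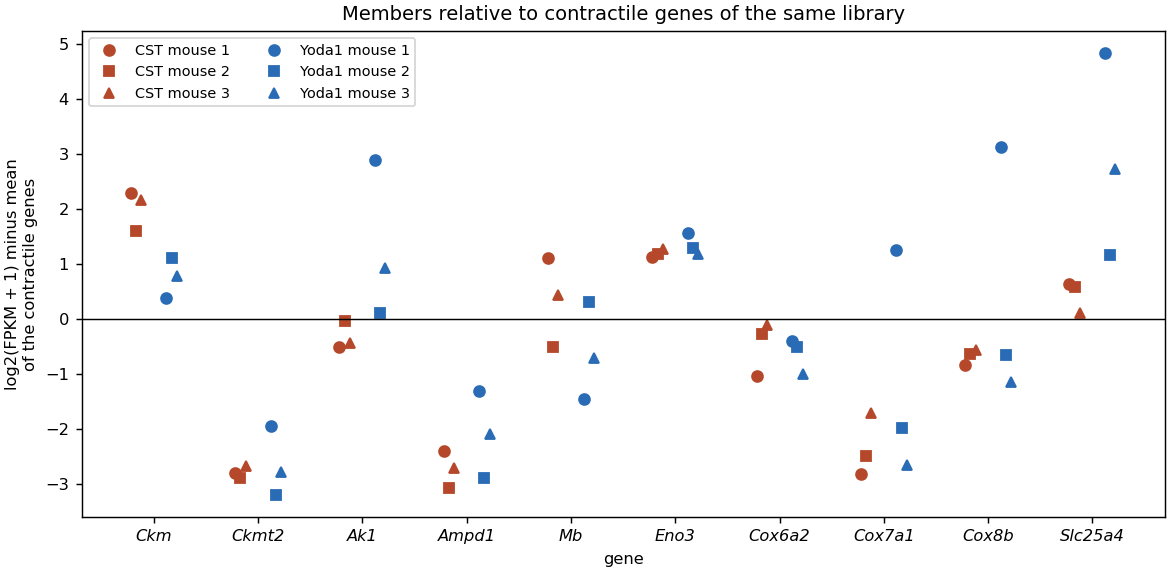
Log2(FPKM + 1) of each member minus the mean of 15 contractile genes in the same library, a symbol per mouse, CST left of Yoda1. Eno3 lies in a narrow band, between 1.13 and 1.57, and Slc25a4, at 4.84, has the highest value of the plot in Yoda1 mouse 1.

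The members differed in their level in Yoda1 mouse 1, the library with the least contractile transcript, and the split given here was made after the values were seen. In 6 members (Mb, Ckmt2, Ckm, Cox6a2, Ampd1 and Eno3) that library held 0.191% to 2.88% of the CST mean. In the other 4 it held 22.7% (Ak1), 24.7% (Cox7a1), 33.3% (Cox8b) and 50.7% (Slc25a4). In Yoda1 mouse 3, by contrast, Cox7a1 and Cox8b were at 2.70% and 4.34% of the CST mean, beside 17.1% for Ak1 and 35.3% for Slc25a4. Fat transcripts were highest in Yoda1 mouse 1. Cox7a1 and Cox8b were higher in Yoda1 mouse 2, where contractile transcript was also higher (5919 FPKM, against 126 and 636 in mice 1 and 3). Between Yoda1 mice 1 and 3, both genes were higher in mouse 1 (Cox8b 35.0 against 4.55 FPKM, Cox7a1 8.77 against 0.957 FPKM). The summed FPKM of 6 white adipocyte genes came to 365, 359 and 455 in CST mice, against 1502, 410.3 and 486 in Yoda1 mice 1 to 3. Ucp1, the uncoupling protein that defines brown adipocytes, measured 3.69 FPKM in Yoda1 mouse 1 from 179 reads, against 0.0210 to 0.110 FPKM in the other 5 libraries from 1 to 5 reads each. Of the other brown fat genes on the list, Zic1 was also highest in Yoda1 mouse 1 (2.77 FPKM, against 0.117 to 0.823 FPKM in CST and 1.85 and 1.22 FPKM in the other Yoda1 mice, with no overlap of the groups), whereas Cidea and Elovl3, which skin also holds in sebaceous glands, and Dio2 and Ppargc1a were not. Ppargc1a was apart in the other direction, with 1.51, 0.974 and 0.985 FPKM in CST and 0.389, 0.584 and 0.207 FPKM in Yoda1 mice. Its average FPKM was below the filter for testing. Summed over the 6 brown fat genes the FPKM ran between 109.5 and 209 for CST mice and between 107 and 141 for Yoda1 mice. Most of this sum was Cidea and Elovl3 (45.3 and 76.2 of 129.3 FPKM in Yoda1 mouse 1), so it does not measure brown fat alone. The part of fat cells in the Cox7a1 and Cox8b values was not tested.

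**Figure D5:**
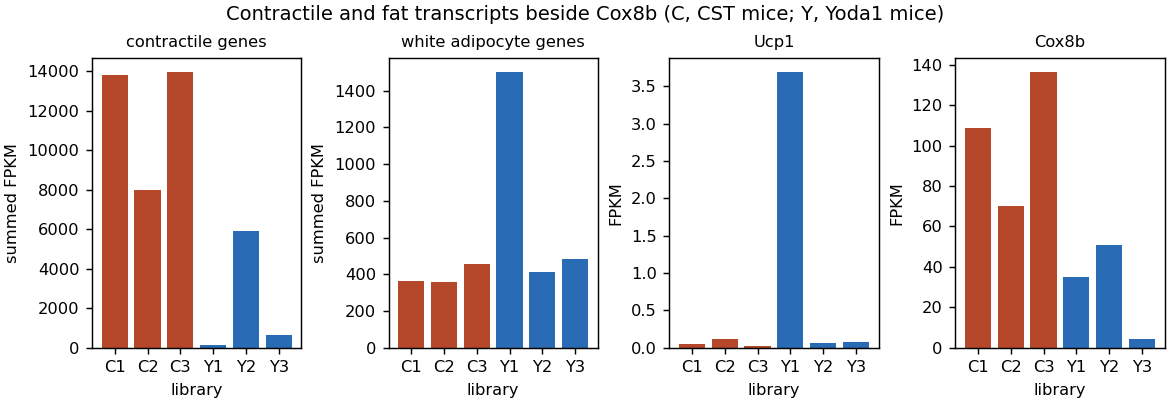
Summed FPKM of 15 contractile genes and of 6 white adipocyte genes, and FPKM of Ucp1 and Cox8b, as 1 bar per library from 0, with CST mice (C1 to C3) left of Yoda1 mice (Y1 to Y3). Yoda1 mouse 1 has the least contractile transcript, 126 FPKM, and the most fat transcript, 1502 FPKM, with Cox8b at 35.0 FPKM.

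The genes outside the 10 whose profile lay closest to the mean profile of the members, by the root mean square difference of centred log2(FPKM + 1) values over the 6 libraries, were Fitm1 (0.192), Dhrs7c (0.198), Art1 (0.215), Cacna1s (0.256) and Nrap (0.268). Fitm1, a lipid droplet protein gene of muscle, measured 20.2, 11.6 and 21.5 FPKM in CST and 0.139, 10.9 and 0.693 FPKM in Yoda1 mice. Cacna1s, the voltage sensor of skeletal muscle, measured 17.1, 9.43 and 16.5 FPKM in CST and 0.299, 7.16 and 0.794 FPKM in Yoda1 mice. Among the members themselves Ckmt2 (0.237) and Ampd1 (0.288) lay closest to their mean, and Mb (1.26), Slc25a4 (1.21) and Ckm (1.11) farthest, Mb and Ckm with a wider swing between libraries and Slc25a4 with a narrower one.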

How the data were processed

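The authors deposited 1 table of FPKM values for 57010 genes in 6 libraries, and the depth per sample is not listed there. GRCm38 and mm10 are the builds named, per the submitters' processing notes; aligner, counter, filters and strandedness: not given in the sources used here. Of 52081 identifiers found in GENCODE M21, 2.9% had the GRCm38 start, so positions were looked up by Ensembl identifier in GENCODE M21 (GRCm38). Sequences are from RefSeq (GRCm38.p6).

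Library depth was worked out from low FPKM values, which are whole multiples of 1 read: the lowest values of 6276 single-exon genes gave a whole number of reads per library, and with it every gene above 0 (30697) came out in whole reads within 0.001, against 0 of 2000 genes with wrong depths. The recovered reads summed to 99.9951% or more of the depth. The length behind the FPKM equalled the rounded mean length of the gene's GENCODE M21 transcripts in 95.1% of 12572 genes with at least 50 reads in every library. Read counts cover counting error only.

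Groups and mouse numbers come from the sample titles, and a mouse is a replicate. Differences were tested with limma 3.58.1 under R 4.3.3 (lmFit, eBayes with a mean-variance trend, two-sided, Benjamini-Hochberg) on log2(FPKM + 1) over 14588 genes whose average FPKM was 1 or more, without covariates; the pseudocount understates the change of low genes. Isoform shares were tested with an exact permutation test (scipy 1.17.1). The code was tested on simulated data. Alternatives covered the pseudocount, filter, scaling, variance model, weights, a contractile covariate, reads in place of FPKM, and each library left out. The members and lists were chosen with earlier results of these data known. One counterpart isoform is not reported here. The genes named are all members, the other counterparts, up to 4 genes of smallest p from each other pathway list, and the 5 of most similar profile; Slc6a8, Hbb-bs, Krt14 and the fat genes named were chosen after their values were seen.

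The longest exact run shared by the transcripts of a member and its counterpart was between 11 and 39 bases. Eno1 and Slc25a5 have close processed copies in the mouse genome, which may share their reads. A930016O22Rik, 1700119I11Rik, Gm49540 with Apol6, and Itgad overlap Ckm, Ckmt2, Mb and Cox6a2 on the other strand, and reads from both strands may then be counted together.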

Additional observations from a re-analysis of the deposited data

How the results depend on the processing

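Each member's log2 change was recomputed under 18 alternatives. All 10 stayed above 0 in all of them, except Mb, which was at -0.57 with the contractile score as a covariate. With that covariate the median of the members was 0.41, 9 of 10 were above 0 and none had an unadjusted p under 0.05; each CST library has a higher contractile score than each Yoda1 library, so the covariate and the treatment cannot be fully told apart. Otherwise the median ran between 1.95 (pseudocount of 5) and 3.80. The count of genes called was 0 except with library weights (1348 genes, 8 of them members) or with a library left out. Leaving out each library in turn gave 0 to 136 genes called, 0 to 7 members called and a median of 2.46 to 3.80. The genes called came from leaving out Yoda1 mouse 2 (136 genes, 135 with greater values in CST) and CST mouse 2 (8 genes). Members without overlap numbered 7 to 10. The count of 10 came only from leaving out CST mouse 2 or Yoda1 mouse 2, the libraries that had overlapped. Smaller groups separate more easily by chance, and the share of all genes without overlap is not given for these settings. That rise is therefore no added evidence of a difference. The 8 isoform shares kept their direction with 0.1 FPKM added, with the longest coding transcript as length and with each library left out. For Ckmt2 and Eno3 relative to contractile genes the difference turned with the pseudocount: 0.71 and -0.46 at 0.1 FPKM, -0.88 and 0.18 at 5 FPKM.

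The mouse numbers are shared between the groups but are not stated to mark a shared litter or day. Deviations from the group means correlated at -0.08, 0.21 and -0.20 for mice 1, 2 and 3, and CST mouse 1 correlated best with Yoda1 mouse 3 (0.34). Deviations from a mean of 3 mice are tied to each other, so these values cannot decide whether the numbers pair the mice. With the replicate block limma called 0 genes and 0 members, with 680 genes at an unadjusted p under 0.05 (584 without it). The smallest limma adjusted p with the block was 0.0828 over all genes and 0.327 among the members, against 0.521 for both without it. Depth limits Ckmt2, Mb and Ampd1 in Yoda1 mouse 1 (3, 11 and 29 reads) and Cox7a1 and Ckmt2 in Yoda1 mouse 3 (10 and 28 reads), the 5 lowest read counts of the members.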

Other observations

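Ratios between members, chosen after their values were seen and so given without a test, differed between libraries. Eno3 stood at 44.5%, 74.8% and 54.1% of the Ckm FPKM in CST mice 1 to 3 and at 256%, 114% and 133% in Yoda1 mice 1 to 3, without overlap. Mb stood at 44.0%, 23.0% and 30.1% of Ckm in CST and at 11.2%, 56.9% and 32.5% in Yoda1 mice, with overlap and with Yoda1 mouse 2 the highest. Cox6a2 stood at 87.8%, 130.04% and 137% of Cox8b in CST and at 6.10%, 109.8% and 114% in Yoda1 mice, so that Yoda1 mouse 1 alone departed from a near-equal level of the 2 subunits.

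Tnnt2, the cardiac troponin T gene that regenerating skeletal muscle is also known to use, followed another pattern than the members: it measured 9.82, 113 and 10.7 FPKM in CST and 11.4, 169.6 and 29.1 FPKM in Yoda1 mice. CST mouse 2 and Yoda1 mouse 2 were thus highest in both groups.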
